A study of Rattus norvegicus with 36 samples.

Results

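The genes described here are 8 markers of striatal projection neurons: Drd1, Drd2, Adora2a, Ppp1r1b, Rgs9, Pde10a, Gpr6 and Rarb. They were chosen by gene name, and all 8 were found in each of the 4 regional count tables, which hold 26142 genes in any table and 21121 in all of them. The study compared rats exposed to a blast with sham rats 6 weeks after exposure, by RNA sequencing of dissected brain regions. There were 36 libraries. The hippocampus gave 5 of blast rats and 5 of sham rats, the amygdala 5 and 4, the anterior cortex 3 and 5, and the cerebellum 5 and 4. No library was labelled as striatum. The sources used here do not give strain, sex, age, the blast pressure or the sham procedure. The labels give each library a number, and nothing in them says that each number is 1 rat, so p-values measure the spread between these samples.

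Striatal projection neurons are the GABA-releasing output cells of the striatum, and they form a pair of pathways with opposing effects on movement. Cells of the direct pathway carry the dopamine receptor of Drd1, which raises cyclic AMP. Cells of the indirect pathway carry the dopamine receptor of Drd2, which lowers cyclic AMP, together with the adenosine receptor of Adora2a, which raises it. The genes are not exclusive to the striatum: related neurons lie in the central amygdala and the intercalated islands, and cortex and cerebellum express some of them. The striatum borders the anterior cortex, the amygdala lies under its caudal part, and bulk RNA of a dissected block holds whatever cells the block contained. In such samples, fewer cells of a type and less RNA per cell cannot be told apart.

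The receptors among the 8 genes are Drd1 (ENSRNOG00000023688, chromosome 17, 11101306 to 11103541), Drd2 (ENSRNOG00000008428, chromosome 8, 53678777 to 53743642), Adora2a (ENSRNOG00000001302, chromosome 20, 14265252 to 14282873) and Gpr6 (ENSRNOG00000049580, chromosome 20, 45813169 to 45815940), an orphan receptor of indirect pathway cells. The signalling proteins are Ppp1r1b (ENSRNOG00000028404, chromosome 10, 86303727 to 86312762), which inhibits a protein phosphatase once phosphorylated by protein kinase A, Rgs9 (ENSRNOG00000003800, chromosome 10, 97509971 to 97582188), which speeds the shut-off of G proteins, and Pde10a (ENSRNOG00000011310, chromosome 1, 52360296 to 52544450), a phosphodiesterase that breaks down cyclic nucleotides. Rarb (ENSRNOG00000024061, chromosome 15, 10120206 to 10262599) encodes a nuclear receptor for retinoic acid. Coordinates are as deposited, and the sources used here do not name their genome build.

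Because cyclic AMP signalling links most of these genes, their promoters were searched for the cyclic AMP response element. RefSeq promoters (GRCr8) of 300 bases, from 250 before the start site to 50 after it, were at hand for 6 of the 8 genes, with 7 start sites. The bases before the start site are printed for the receptors that define each pathway and for the 2 genes with a match, 5′ to 3′, with the half-site TGACG on either strand in capitals.
Drd1, chr17:10546354-10546603 (+ strand): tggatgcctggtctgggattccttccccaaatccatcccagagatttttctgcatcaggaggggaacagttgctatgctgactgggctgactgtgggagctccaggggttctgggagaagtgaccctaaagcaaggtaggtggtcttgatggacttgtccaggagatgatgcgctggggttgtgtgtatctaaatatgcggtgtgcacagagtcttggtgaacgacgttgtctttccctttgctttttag
Drd2, chr8:58605153-58605402 (+ strand): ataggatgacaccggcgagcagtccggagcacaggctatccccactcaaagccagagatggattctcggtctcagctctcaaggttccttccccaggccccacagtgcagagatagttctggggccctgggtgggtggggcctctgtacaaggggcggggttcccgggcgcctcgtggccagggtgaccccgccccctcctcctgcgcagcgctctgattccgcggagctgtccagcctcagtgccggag
Gpr6, chr20:46075252-46075501 (- strand): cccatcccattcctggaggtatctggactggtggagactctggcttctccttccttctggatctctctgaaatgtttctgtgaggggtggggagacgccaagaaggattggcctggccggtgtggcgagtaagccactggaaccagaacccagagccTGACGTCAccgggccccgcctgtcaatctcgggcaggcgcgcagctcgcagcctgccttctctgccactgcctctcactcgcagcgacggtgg
Pde10a, chr1:54765669-54765918 (- strand): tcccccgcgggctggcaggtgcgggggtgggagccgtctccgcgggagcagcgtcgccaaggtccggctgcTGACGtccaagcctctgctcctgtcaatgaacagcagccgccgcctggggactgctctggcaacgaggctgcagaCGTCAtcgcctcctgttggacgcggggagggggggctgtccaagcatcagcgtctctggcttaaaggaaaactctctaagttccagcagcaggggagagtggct
The half-site TGACG was found in 2 of the 7 promoters, against 21.2% of 33469 RefSeq rat promoters of the same length. Gpr6 held the full palindrome TGACGTCA, which contains the half-site on both strands, at bases -93 to -86 with the start site counted as 0, and 1.83% of all promoters held it. Pde10a held 2 separate half-sites, at -179 to -175 and at -104 to -100. Drd1 and Drd2 held neither in this window. Of the other letters searched on both strands, GGGCGG (GC box) was in 4 of the 7 promoters against 33.1% of all, CCAAT was in 2 against 37.5%, and TATAAA was in 0 against 14.2%. These are matches of letters and not evidence of binding.

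Library totals ranged from 15426786 to 23460322 reads counted in genes. Levels are given as CPM, the count scaled to a common library total, and tests used edgeR's quasi-likelihood test on the counts with Benjamini-Hochberg adjustment over all genes of a table. By marker lists, cerebellar libraries matched their label: their markers summed to 4779.3 to 5431.5 CPM in the cerebellum and to at most 217 CPM elsewhere, and dentate and hippocampal markers summed to 442.04 to 836.66 CPM in the hippocampus, where blast 6 was the lowest and within the amygdalar range of 343.43 to 456.96 CPM. Dopamine transporter transcripts (Slc6a3) stayed at or below 0.68 CPM in every library. Some libraries stood apart. Hippocampal blast 6 held the highest value of 26.7% and the lowest of 26.5% of all genes tested in its region, with 8834.6 CPM of choroid plexus markers and 23671 CPM of myelin markers, against at most 2797.9 and 10031 CPM in the other hippocampal libraries. The title of that library ends in _re, which no other title does, and the sources used here do not explain it. Amygdalar blast 6 held 7090.8 CPM of myelin markers, against at most 4520.2 CPM in the other amygdalar libraries, and anterior cortex sham 13 was the lowest library of its region for every marker. Amygdalar blast 9 held 2010.1 CPM of choroid plexus markers, against at most 29.06 CPM in the other amygdalar libraries. For the markers of striatal projection neurons, blast estimates and correlations that these libraries moved most are given without them beside the values from all libraries. So are some cortical correlations of other genes with the mean of those markers. Blast estimates of all other genes and of gene lists are given with all libraries alone. How far the libraries that stood apart moved those estimates was not tested. Genes of most like pattern are given with all libraries alone. So are differences of blast estimates between regions, apart from the range of their p.

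In sham rats, all 8 markers were highest in the anterior cortex. In FPKM, which is also scaled to gene length and so allows genes to be compared, Ppp1r1b was far the most abundant there at 117 ± 19.8 (SD, n = 5), followed by Pde10a at 22.6 ± 3.32 and Rgs9 at 13.3 ± 3.79. The receptors were lower, with Adora2a at 8.76 ± 1.13, Drd1 at 6.03 ± 2.31, Drd2 at 4.65 ± 0.93 and Gpr6 at 1.99 ± 0.78, and Rarb stood at 3.41 ± 0.56. All 8 markers were called higher in the anterior cortex than in the hippocampus and than in the cerebellum, where 47.3% and 65.1% of all genes tested were called in either direction. Between hippocampus and amygdala 6 of 8 were called higher in the amygdala and 0 lower (29.9% of genes called), between amygdala and cerebellum 5 higher and 1 lower in the amygdala (61.1%), and between hippocampus and cerebellum 2 higher and 3 lower in the hippocampus (59.9%). Between the anterior cortex and the amygdala, 6 of the 8 were called higher in the cortex, against 28% of genes called in either direction. Drd1 and Gpr6 were the others, at log2 differences of 0.36 (SE 0.28, adjusted p = 0.374) and 0.42 (SE 0.35, adjusted p = 0.402).

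**Figure D1:**
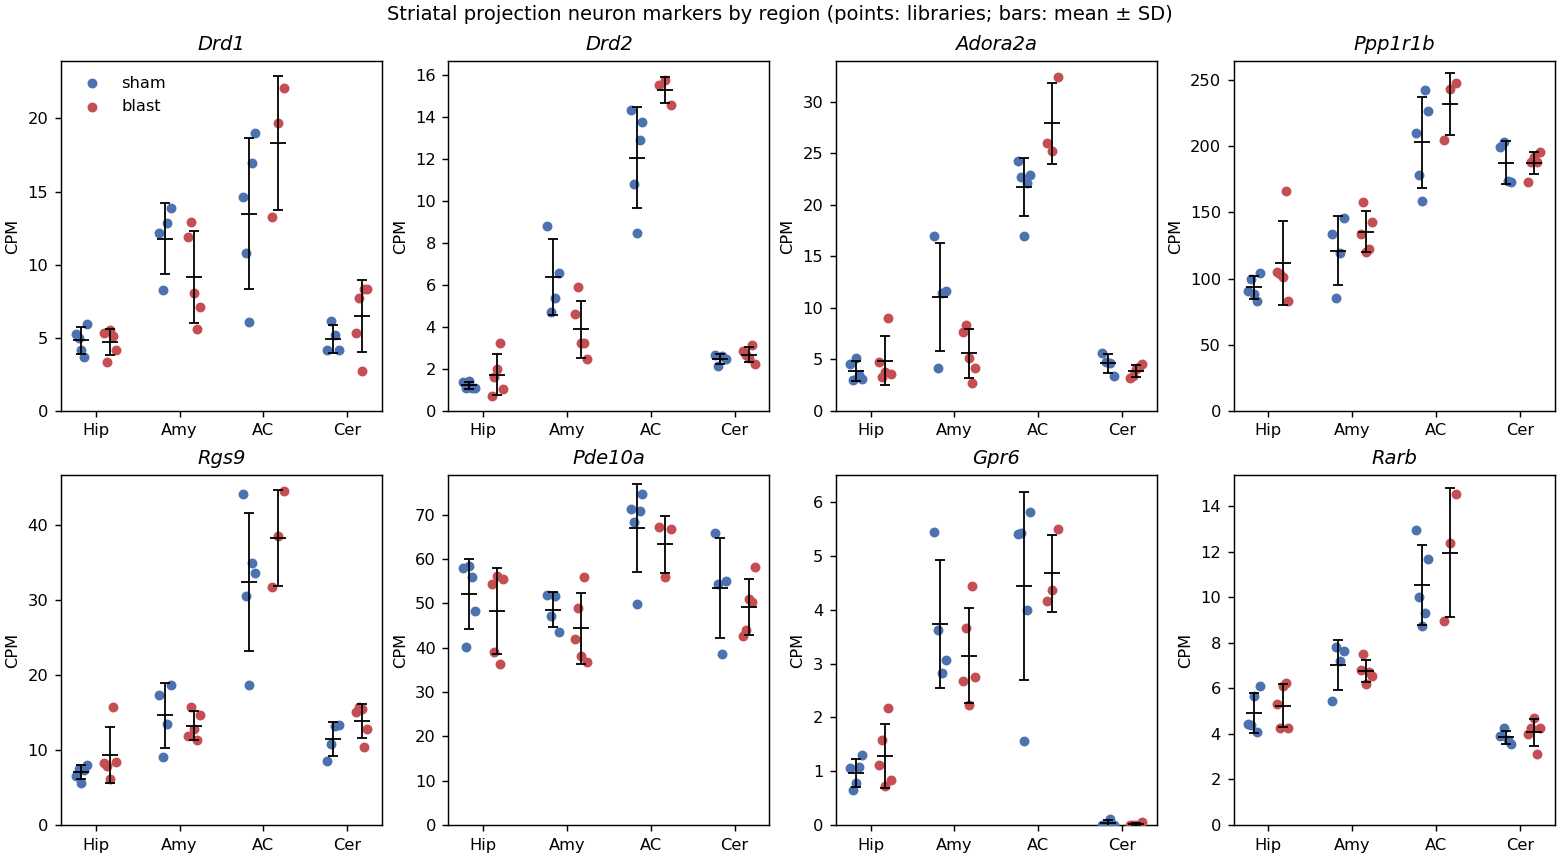
CPM of the 8 markers in every library of the hippocampus (Hip), amygdala (Amy), anterior cortex (AC) and cerebellum (Cer), with sham libraries in blue, blast libraries in red, and bars for the mean and SD of each group. Sham means were highest in the anterior cortex for all 8 genes, while Ppp1r1b and Pde10a were also abundant in the cerebellum, where Gpr6 was near 0.

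Drd1, Drd2 and Adora2a were each called higher in the amygdala than in the cerebellum, and their other steps differed. Drd2 stood at 12.1 ± 2.41 CPM in the anterior cortex (n = 5), 6.37 ± 1.81 in the amygdala (n = 4), 2.47 ± 0.24 in the cerebellum (n = 4) and 1.21 ± 0.18 in the hippocampus (n = 5), and each neighbour in that order differed (adjusted p of 0.00143, 2.88e-05 and 0.00718 by edgeR). Adora2a stood at 21.8 ± 2.81, 11.1 ± 5.27, 4.60 ± 0.91 and 3.85 ± 0.96 CPM in the same order. Its last step did not pass the test (adjusted p = 0.780), and the first 2 steps did (adjusted p of 0.0034 and 0.000409). Drd1 stood at 13.5 ± 5.16 CPM in the anterior cortex, 11.8 ± 2.45 in the amygdala, 4.91 ± 0.95 in the cerebellum and 4.82 ± 0.90 in the hippocampus. The amygdala stood apart from the cerebellum (log2 difference 1.35, SE 0.31, adjusted p = 0.000281), and the cerebellum and hippocampus could not be ordered: the sign of their difference depended on the scaling, at -0.12 by TMM factors and 0.03 by library totals.

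Ppp1r1b and Pde10a did not share that order. Ppp1r1b stood at 203 ± 34.4 CPM in the anterior cortex, 187.6 ± 16.4 in the cerebellum, 121 ± 26.1 in the amygdala and 93.4 ± 8.68 in the hippocampus. Cerebellum exceeded amygdala by 0.55 on the log2 scale (SE 0.15, adjusted p = 0.00166), the reverse of the receptors. Amygdala and hippocampus did not differ past the threshold (adjusted p = 0.0848, and 0.00955 without amygdalar sham 13). The step from cortex to cerebellum was 0.36 by TMM factors (adjusted p = 0.0221) and 0.11 by library totals, where mean TMM factors differed by -0.25 on the log2 scale (cortex minus cerebellum). That call was lost without sham 16 or 18 of either region (adjusted p up to 0.0742 by edgeR). Pde10a stood at 67.04 ± 9.87 CPM in the anterior cortex and at 53.5 ± 11.2, 52.2 ± 7.91 and 48.5 ± 3.93 CPM in cerebellum, hippocampus and amygdala. Only its step from the cortex to the cerebellum passed the test among neighbours (0.57, SE 0.16, adjusted p = 0.00165). Its levels in the other 3 regions did not differ beyond their spread, with adjusted p between 0.46 and 0.766 for the 3 pairs.

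Rgs9, Rarb and Gpr6 completed the set. Rgs9 stood at 32.3 ± 9.17 CPM in the anterior cortex, 14.6 ± 4.34 in the amygdala, 11.4 ± 2.23 in the cerebellum and 6.99 ± 0.93 in the hippocampus, with no difference past the threshold between amygdala and cerebellum (adjusted p = 0.104, and 0.0228 without amygdalar sham 13). Its call between cerebellum and hippocampus was lost without hippocampal sham 10 or 13 or cerebellar sham 16 or 18 (adjusted p up to 0.0898 by edgeR). Rarb stood at 10.5 ± 1.75, 7.03 ± 1.09, 4.93 ± 0.88 and 3.86 ± 0.29 CPM in cortex, amygdala, hippocampus and cerebellum, and each step passed the test (largest adjusted p = 0.0264). The step from amygdala to hippocampus lost its call when any of 6 single libraries was left out, hippocampal sham 10, 12 or 16 or amygdalar sham 13, 16 or 18 (adjusted p up to 0.088 by edgeR). Gpr6 was the only marker close to absent anywhere. It gave 3 counts in all over the 9 cerebellar libraries, 7 of which were at 0, and a count of 0 allows up to 0.159 to 0.181 CPM in those libraries (3 counts of the total, counting error only). Its sham mean was 4.44 ± 1.75 CPM in the anterior cortex, 3.74 ± 1.19 in the amygdala and 0.97 ± 0.26 in the hippocampus, and hippocampus and cerebellum differed (adjusted p = 5.07e-08 by edgeR).

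Blast exposure was then compared with sham in each region. No marker passed the test in any region, where 1 of 15765 genes (0.00634%) was called in the anterior cortex and 0% of genes in the hippocampus, amygdala and cerebellum. At an unadjusted p under 0.05, 3 of the 31 tests of a marker were past the threshold, and the share of all genes was 5.24% in the hippocampus, 5.22% in the amygdala, 5.82% in the anterior cortex and 6.82% in the cerebellum. DESeq2 called 0 genes in the hippocampus, 11 in the amygdala, 9 in the anterior cortex and 41 in the cerebellum, and none was a marker. Gpr6 did not pass the filter on low counts in the cerebellum.

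**Figure D2:**
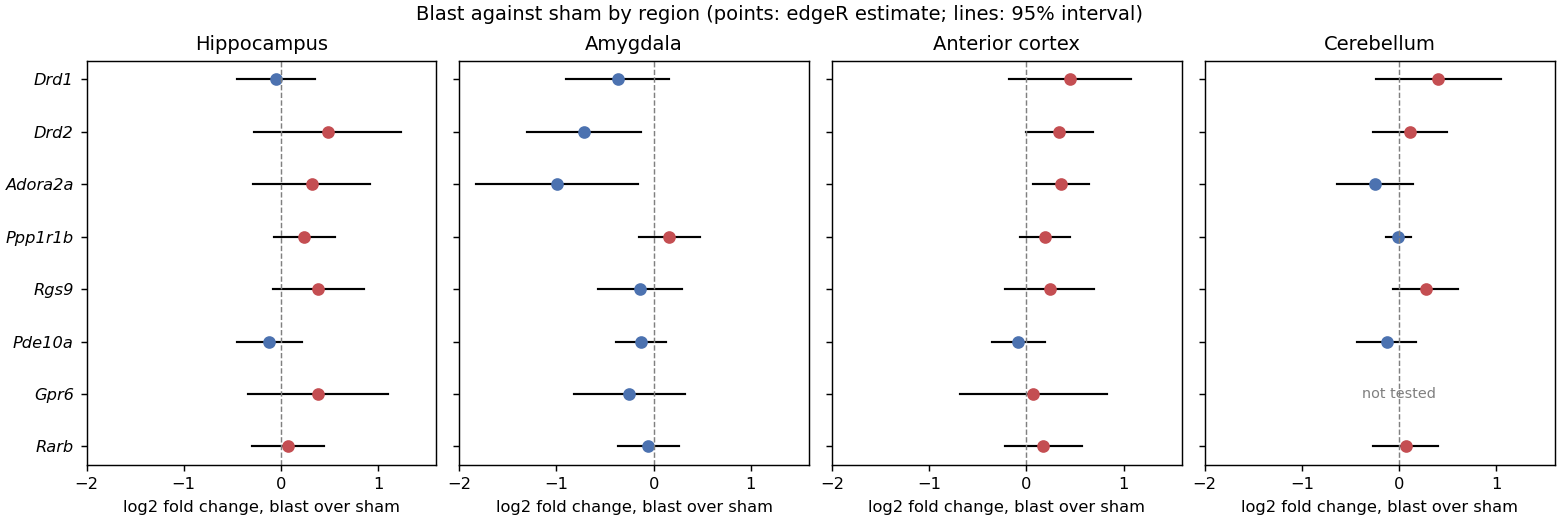
Log2 fold change of blast over sham for each marker and region, with the edgeR estimate as a point (red above 0, blue below) and its 95% interval as a line. Most points lie above 0 in the anterior cortex and below 0 in the amygdala, and the intervals that leave out 0 are those of Drd2 and Adora2a in the amygdala and of Adora2a in the anterior cortex.

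In the anterior cortex, 7 of the 8 markers had a higher estimate in blast, with a median log2 fold change of 0.22, against 49.8% of all genes lower in blast and a median near 0. Adora2a was 26.0, 25.2 and 32.4 CPM in blast 1, 5 and 6, and 24.2, 22.6, 16.9, 22.1 and 22.9 CPM in sham 10, 12, 13, 16 and 18. All 3 blast libraries were above all 5 sham libraries, and the log2 fold change was 0.36 (SE 0.13, 95% interval 0.07 to 0.65, unadjusted p = 0.0206, adjusted p = 0.842 by edgeR). Drd2 was 15.5, 15.8 and 14.6 CPM in blast 1, 5 and 6, and 14.4, 10.8, 8.49, 12.9 and 13.8 CPM in sham 10, 12, 13, 16 and 18. Its groups did not overlap either, with the lowest blast library just above sham 10, at a log2 fold change of 0.34 (SE 0.16, adjusted p = 0.842 by edgeR). Groups with every blast library above every sham library were found for 2.06% of all genes tested in this region, and the reverse for 1.78%.

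Drd1, the receptor of the direct pathway, was 13.2, 19.7 and 22.1 CPM in blast 1, 5 and 6, and 14.6, 10.8, 6.04, 16.97 and 19.0 CPM in sham 10, 12, 13, 16 and 18. The groups overlapped, with blast 1 below sham 10, 16 and 18, and the log2 fold change was 0.45 (SE 0.29, adjusted p = 0.846 by edgeR). Ppp1r1b was 204.8, 243.5 and 247.7 CPM in blast 1, 5 and 6, and 209.9, 178.2, 158.6, 242.2 and 226.5 CPM in sham 10, 12, 13, 16 and 18. It followed Drd1 library by library, at a log2 fold change of 0.19 (SE 0.12). Rgs9, Rarb and Gpr6 had log2 fold changes of 0.24, 0.18 and 0.07, and Pde10a was the marker with a lower estimate, at -0.08 (SE 0.13). In the authors' deposited table, Adora2a and Drd2 had log2 fold changes of 0.30 and 0.27 in this region, with adjusted p of 0.958 and 0.995.

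A pair of cortical libraries carried much of this pattern. Sham 13 was the lowest library for 8 of 8 markers, whereas 11.3% of all genes tested were lowest there. Blast 6 was the highest for 5 of 8, against 13.9% of all genes. Without sham 13, 6 of 8 markers had a higher estimate in blast and the median log2 fold change was 0.12, and without blast 6 the values were 5 of 8 and 0.12. Without sham 13 the log2 fold changes were 0.26 for Drd1, 0.24 for Drd2, 0.28 for Adora2a, 0.12 for Ppp1r1b, 0.09 for Rgs9, 0.12 for Rarb, -0.15 for Gpr6 and -0.17 for Pde10a. Without blast 6 they were 0.27 for Drd1, 0.36 for Drd2, 0.22 for Adora2a, 0.13 for Ppp1r1b, 0.10 for Rgs9, -0.0054 for Rarb, -0.07 for Gpr6 and -0.13 for Pde10a. Sham 13 had 19192203 counts. Its excitatory neuron markers summed to 3620.2 CPM, within the 3417.8 to 3956.2 CPM of the region. Its myelin markers were the highest of the region at 9339.6 CPM, its dentate and hippocampal markers the lowest at 168.19 CPM, its Gad1 the highest at 190.9 CPM, and its Th was 7.92 CPM against at most 3.03 CPM elsewhere. The part of these in the marker values was not tested.

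**Figure D3:**
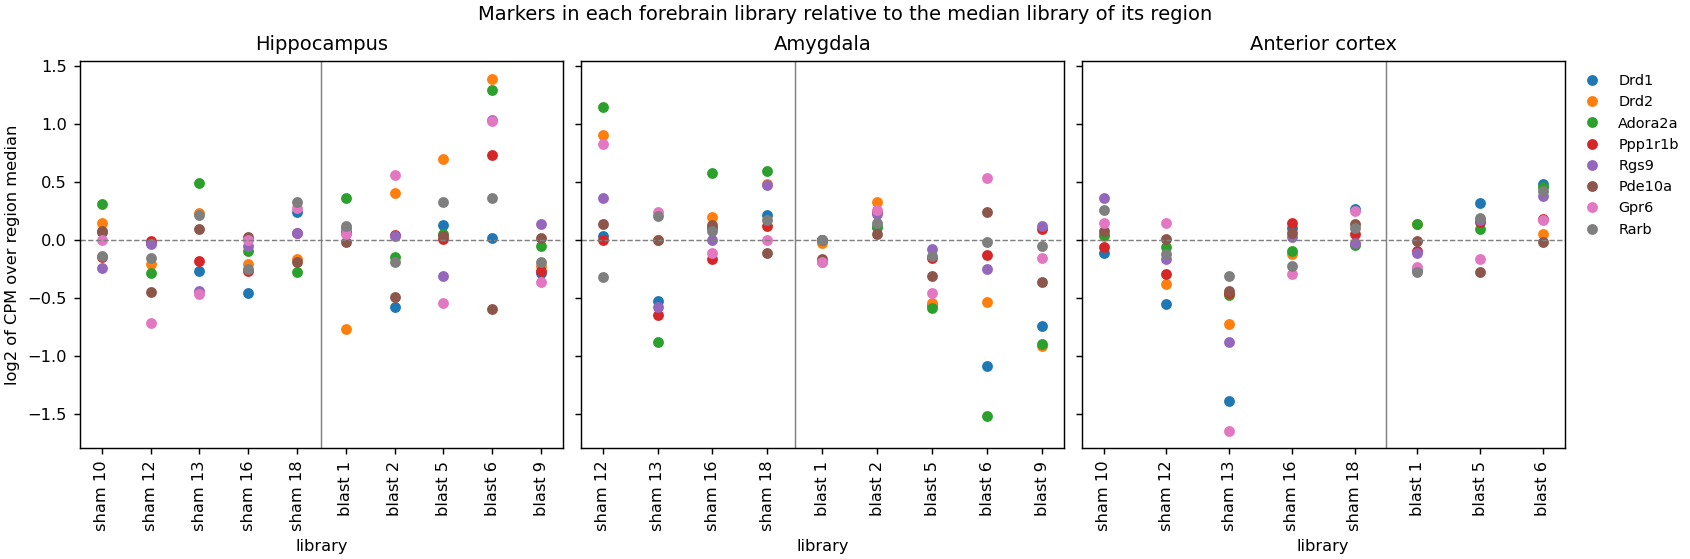
Each marker in every forebrain library, as the log2 of its CPM over the median of all libraries of the region, with sham libraries left of the line and blast libraries right of it. All 8 markers were below the median in anterior cortex sham 13, most were above it in anterior cortex blast 6, and in the hippocampus blast 6 was above it for the receptors, Ppp1r1b, Rgs9 and Rarb and below it for Pde10a.

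In the amygdala the estimates pointed the other way, lower in blast for 7 of the 8 markers, with a median log2 fold change of -0.20, where 49% of all genes were lower in blast. Adora2a was 7.67, 8.29, 5.12, 2.68 and 4.12 CPM in blast 1, 2, 5, 6 and 9, and 17, 4.16, 11.4 and 11.6 CPM in sham 12, 13, 16 and 18. Every blast library was below sham 12, 16 and 18, and sham 13 lay among the blast libraries. The log2 fold change was -0.99 (SE 0.38, 95% interval -1.83 to -0.16, unadjusted p = 0.0236, adjusted p = 0.901 by edgeR). Drd2 was 4.62, 5.88, 3.23, 3.25 and 2.48 CPM in blast 1, 2, 5, 6 and 9, and 8.82, 4.70, 5.39 and 6.57 CPM in sham 12, 13, 16 and 18. All blast libraries other than blast 2 were below the sham range, at a log2 fold change of -0.72 (SE 0.27, unadjusted p = 0.0204, adjusted p = 0.901 by edgeR). The authors' deposited table gave smaller log2 fold changes in this region, at -0.17 for Adora2a and -0.29 for Drd2. Its adjusted p was 0.699 for Adora2a, and it gave none for Drd2.

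Drd1 was 11.9, 12.9, 8.07, 5.62 and 7.13 CPM in amygdala blast 1, 2, 5, 6 and 9, and 12.2, 8.26, 12.8 and 13.8 CPM in sham 12, 13, 16 and 18. Blast 5, 6 and 9 stood below the sham range and the other two within it, at a log2 fold change of -0.37 (SE 0.24, adjusted p = 0.901 by edgeR). The remaining markers had smaller estimates. Gpr6, Rgs9, Pde10a and Rarb had log2 fold changes of -0.25, -0.14, -0.13 and -0.06 (SE 0.26, 0.20, 0.12 and 0.14), and Ppp1r1b, which inhibits the phosphatase, had 0.16 (SE 0.14). For Gpr6, 3 blast libraries were below the sham range and 0 above, and for Pde10a 3 were below and 1 above. Without blast 6 these 5 markers came to -0.41, -0.10, -0.23, -0.06 and 0.19 in the same order. No marker had groups without overlap here, where 0.837% of all genes had every blast library below every sham library and 0.762% above. The median over the 8 markers was -0.23 without blast 6, -0.20 without blast 9, -0.30 without sham 13 and -0.12 without sham 12. Leaving out 1 library at a time kept Adora2a between -1.27 and -0.70, Drd2 between -0.90 and -0.51 and Drd1 between -0.52 and -0.24, with -0.91, -0.59 and -0.30 without blast 9, and without sham 18 the number of markers with a lower estimate was 5.

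Genes for making and loading GABA had lower estimates in the same libraries. Gad1 and Gad2, which synthesise GABA, and Slc32a1, which loads it into vesicles, summed to 433.99 to 538.23 CPM in the blast libraries and to 552.35 to 642.73 CPM in the sham libraries, without overlap. Blast 6 had the lowest sum, and the other blast libraries spanned 464.47 to 538.23 CPM. Among single genes of this region, 0.837% had every blast library below every sham library. The log2 fold changes of Gad1, Gad2 and Slc32a1 were -0.21, -0.37 and -0.22, with unadjusted p of 0.0131, 0.000558 and 0.0341 and adjusted p of 0.901 by edgeR. An unadjusted p under 0.05 was reached by 5.22% of all genes there. Of the other direct pathway genes, 4 had a higher and 2 a lower estimate in blast (median 0.07), and Tac1, a tachykinin precursor, was one of the latter at -0.60 (SE 0.16, unadjusted p = 0.00259, adjusted p = 0.901 by edgeR). Markers of the central amygdala and intercalated cells summed to 209.68 to 260.45 CPM in blast and to 211.01 to 260.81 CPM in sham, and those of forebrain excitatory neurons to 2941.4 to 3827.2 and 2939.7 to 3211.2 CPM. The part of these cell types in the receptor values was not tested.

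In the hippocampus, 6 of the 8 markers had a higher estimate in blast, and blast 6 set most of the size. Drd2 was 0.73, 1.63, 2.004, 3.24 and 1.05 CPM in blast 1, 2, 5, 6 and 9, and 1.36, 1.07, 1.45, 1.07 and 1.10 CPM in sham 10, 12, 13, 16 and 18. Adora2a was 9.01 CPM in blast 6 and 3.02 to 5.16 CPM in the other libraries. Ppp1r1b was 166.4 CPM in blast 6 and 83.2 to 104.7 CPM elsewhere, and Rgs9 was 15.7 CPM against 5.64 to 8.42 CPM. Pde10a went the other way, with its lowest value of 36.4 CPM in blast 6. With all libraries the log2 fold changes of Drd2, Adora2a, Rgs9 and Ppp1r1b were 0.48 (SE 0.35), 0.32 (SE 0.28), 0.39 (SE 0.22) and 0.24 (SE 0.14), with adjusted p of 0.816 to 0.817 by edgeR. No marker had groups without overlap, which 0.534% (blast higher) and 0.313% (blast lower) of all genes had. Without blast 6 the median over the 8 markers was 0.05 in place of 0.28, and Drd2, Adora2a, Rgs9 and Ppp1r1b came to 0.16, 0.0077, 0.14 and 0.08. Gpr6 came to 0.14, from 0.38 with all libraries.

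Other genes were read in hippocampal blast 6 as well. Six3, a transcription factor of indirect pathway cells, was 3.36 CPM there, against a highest value of 0.67 CPM among the remaining hippocampal libraries. Of the 30 other genes in the direct pathway, indirect pathway and other striatal lists that passed the filter, 7 (23.3%) were highest and 9 (30.0%) lowest in this library, close to the 26.7% and 26.5% of all genes. Pdyn, the prodynorphin gene of direct pathway cells and of the dentate gyrus, was 21.0 CPM there and 56.9 to 85.2 CPM elsewhere, and Slc17a7, the vesicular glutamate transporter of forebrain excitatory neurons, was 1089 CPM there and 1860 to 2311 CPM elsewhere. Prkcd, a protein kinase of thalamic and central amygdala cells, was 20.6 CPM there against 4.90 to 8.71 CPM. The part of each tissue in the marker values was not tested.

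In the cerebellum, 4 of the 7 markers tested had a higher estimate and 3 a lower one, with a median log2 fold change of 0.07. The largest estimates were 0.40 for Drd1 (SE 0.29), 0.27 for Rgs9 (SE 0.15) and -0.25 for Adora2a (SE 0.18), with adjusted p of 0.803, 0.754 and 0.799 by edgeR. Ppp1r1b was the most closely measured marker, at 173 to 195.6 CPM in blast and 173.4 to 203.6 CPM in sham. Its log2 fold change was -0.01, with a 95% interval of -0.14 to 0.12. Drd1 spread from 2.72 to 8.37 CPM in blast and from 4.13 to 6.14 CPM in sham, and the other markers overlapped as well. Groups without overlap made up 1.35% (blast higher) and 1.06% (blast lower) of all genes there.

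Whether the blast estimates differed between regions was tested with the 3 region by treatment terms over all 36 libraries, which called 2 of 17120 genes (0.0117%). No marker was among them. Adora2a had the smallest p among the markers (unadjusted p = 0.00822, adjusted p = 0.767 by edgeR), with a difference of -1.31 on the log2 scale between the blast estimates of amygdala and hippocampus. Drd2 followed (unadjusted p = 0.0111, adjusted p = 0.823 by edgeR), with a difference of -1.19 between the same regions. Each p is for the 3 terms together, with the hippocampus as baseline. Leaving out 1 library gave unadjusted p of 0.000298 to 0.0479 for Adora2a and 0.00154 to 0.0601 for Drd2 by edgeR. Without hippocampal blast 6, the hippocampal blast estimates themselves were 0.0077 for Adora2a and 0.16 for Drd2, from 0.32 and 0.48. The other 6 markers had adjusted p from 0.935 to 1.00. At an unadjusted p under 0.05, the share of all genes was 5.36%.

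Co-variation between libraries was examined because shared movement of these markers could follow the amount of striatal tissue in a block. Pearson's r of log2 CPM was taken for each pair of markers over all libraries of a region, 105 pairs in all, with two-sided permutation p-values, exact for regions with under 10 libraries. The values of a pair share library and depth. In the anterior cortex 28 of 28 pairs had r above 0, with a median of 0.74 and a range of 0.31 to 0.98. The median was 0.76 with values centred on the blast and sham means. It was 0.45 without sham 13 and 0.22 when the 2 libraries farthest from the median of the first gene were left out of each pair, where 19 of 28 pairs stayed above 0.

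**Figure D4:**
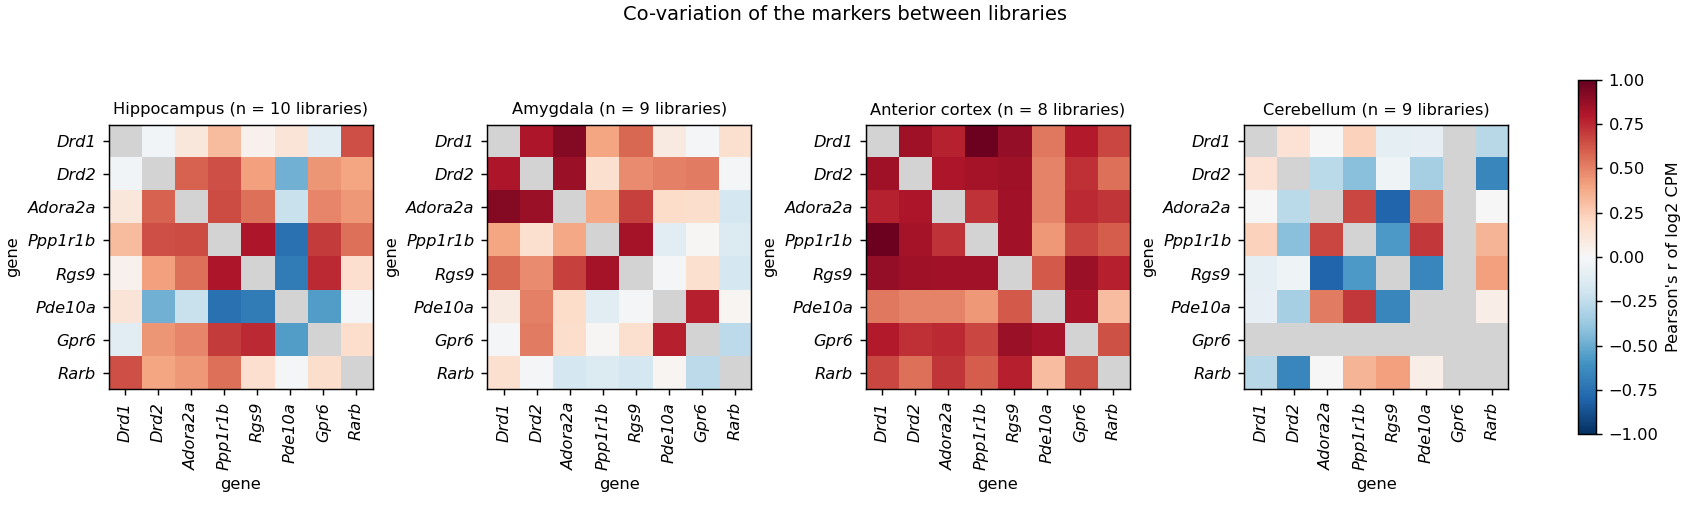
Pearson's r of log2 CPM between each pair of markers over the libraries of a region, from -1 (blue) to 1 (red), with grey for a gene with itself and for Gpr6 in the cerebellum. All pairs were above 0 in the anterior cortex, the pairs among Drd1, Drd2 and Adora2a were high in the amygdala, and the cerebellum had 10 of 21 pairs above 0.

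The closest cortical pair was Drd1 with Ppp1r1b, the receptor and the phosphatase inhibitor downstream of it (r = 0.98, exact permutation p = 0.000149, adjusted p = 0.0156, n = 8). Spearman's rho was 0.93 (exact permutation p = 0.00223, adjusted p = 0.16), and r was 0.94 without the 2 libraries farthest from the median of Drd1. It was the only pair of the region past the adjusted threshold by r, and the region had 0 such pairs without blast 6, sham 12 or sham 13. Within the indirect pathway Drd2 with Adora2a had r = 0.81 and rho = 0.81 (exact permutation p for r = 0.0143, adjusted p = 0.103), and across the pathways Drd1 with Drd2 had r = 0.85 and rho = 0.48 (exact permutation p for r = 0.0166, adjusted p = 0.103). Without sham 13 r was 0.55 and 0.51 for these pairs and 0.96 for Drd1 with Ppp1r1b. The difference between the pairs was not tested. Rgs9 followed the mean of the other 7 markers most closely (r = 0.95), and Pde10a least (r = 0.63). Without sham 13 these values were 0.79 and -0.07, and that of Rarb was 0.86. No pair in any region passed the adjusted threshold by rho.

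In the amygdala the highest r was that of Drd1 and Adora2a. They had r = 0.92 (exact permutation p = 0.000766, adjusted p = 0.0402, n = 9), with rho 0.87 (exact permutation p = 0.00451, adjusted p = 0.16) and r = 0.84 without the 2 libraries farthest from the median of Drd1. The region kept a pair past the adjusted threshold without sham 12 and had 0 when any other single library was left out. Drd2 joined them with r = 0.81 to Drd1 and 0.86 to Adora2a (adjusted p = 0.103 each, exact permutation). Ppp1r1b and Rgs9 had r = 0.83, and Pde10a and Gpr6 had r = 0.77, with adjusted p = 0.103 for both pairs by exact permutation. The remaining pairs ranged from -0.26 for Gpr6 with Rarb to 0.68 for Adora2a with Rgs9, with 0.58 for Drd1 with Rgs9 and 0.51 for Drd2 with Pde10a. Over all 28 pairs 20 had r above 0, with a median of 0.17, and the median was 0.43 without blast 6. Leaving out blast 6 gave r = 0.87 for Drd1 with Adora2a, 0.69 for Drd1 with Pde10a in place of 0.09, and 0.87 for Drd2 with Pde10a. That library held the lowest Drd1 and Adora2a of the region and the highest Pde10a, with 17.8 CPM of Penk, the enkephalin precursor of indirect pathway cells, against 45.0 to 122.2 CPM elsewhere.

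Hippocampus and cerebellum gave no pair past the adjusted threshold. In the hippocampus 20 of 28 pairs had r above 0, with a median of 0.36, which came to -0.02 without blast 6. Pde10a with Ppp1r1b had r = -0.75 there (permutation p = 0.00946, adjusted p = 0.103, n = 10), -0.50 without blast 6 and -0.48 without the 2 libraries farthest from the median of Ppp1r1b. In the cerebellum 10 of 21 pairs were above 0 and the median was -0.04. There Ppp1r1b followed Pde10a (r = 0.70) and Adora2a (r = 0.67), and Rgs9 ran opposite to Adora2a (r = -0.79, exact permutation p = 0.012, adjusted p = 0.103, n = 9).

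Other genes of the same neurons were read beside the 8 markers, by counts and medians alone. Among cortical values, 7 of 7 other direct pathway genes had a higher estimate in blast (median 0.14), as did 3 of 6 indirect pathway genes (median 0.03) and 13 of 20 other striatal genes (median 0.08), and 0 of the 33 was called. Isl1, a transcription factor of direct pathway cells, was at 1.10 (SE 0.38), and Bcl11b, a transcription factor that striatal neurons share with deep cortical neurons, was at 0.28 (SE 0.07), with every blast library above every sham library for Bcl11b. Such groups were found for 2.06% of all genes tested in this region, and how many of the 33 genes had them was not counted. Penk, at 0.21 (SE 0.11), had a higher estimate too, while Scn4b, a sodium channel subunit, was at -0.17 (SE 0.11). In sham 13, 17 of these 33 genes were at their lowest, including Penk at 49.8 CPM against 62.8 to 76.0 CPM.

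The mean log2 CPM of the 8 markers gave a second reading. Over the cortical libraries r with that mean was 0.91 for Penk, 0.85 for Six3, 0.84 for Isl1, 0.75 for Tac1 and 0.73 for Pdyn. Among signalling genes it was 0.94 for Gnal, the G protein subunit that couples the Drd1 and Adora2a receptors to adenylyl cyclase in the striatum, 0.71 for Gng7, its partner subunit, 0.70 for Adcy5, the main striatal adenylyl cyclase, and 0.78 for Pde1b, a phosphodiesterase. It was low for Rasd2 (0.09), a striatal small GTPase, Foxp1 (0.14), a transcription factor, and Gnb5 (0.11), the binding partner of Rgs9. It was negative for Sp9 (-0.60), a transcription factor of indirect pathway cells, Gad1 (-0.76) and Th (-0.74), which makes the dopamine precursor. Much of this rested on sham 13: without it r was 0.83 for Gnal, 0.77 for Isl1, 0.71 for Six3, 0.67 for Gng7, 0.65 for Penk, 0.61 for Tac1 and 0.42 for Adcy5, but 0.12 for Pde1b, -0.03 for Pdyn, -0.82 for Foxp1, -0.73 for Gnb5 and 0.27 for Th. By whole lists and with all libraries, r was positive for 15 of 28 signalling genes (median 0.03). It was positive for 5 of 7 other direct pathway genes (median 0.73) and 3 of 6 indirect pathway genes (median 0.31). Of the other striatal genes, 18 of 20 had positive r (median 0.50). The median over all 15765 genes was -0.0038, and 0.875% of them exceeded 0.8. Markers of cholinergic neurons, the striatal interneurons and basal forebrain cells that use acetylcholine, summed to 19.9 CPM in blast 6 and 12.8 CPM in sham 10 and to 3.68 to 8.08 CPM in the other cortical libraries, with 5 of 5 genes of positive r (median 0.58). Their part in the marker values was not tested. In the amygdala, with all libraries, r with the markers' mean was positive for 5 of 6 other direct pathway genes (median 0.35). It was positive there for 6 of 6 indirect pathway genes (median 0.49) and 18 of 20 other striatal genes (median 0.40). The same held for 23 of 28 signalling genes (median 0.33) and 3 of 3 GABA genes (median 0.61). Of the other striatal genes, 8 of 19 had positive r in the hippocampus and 6 of 15 in the cerebellum.

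Signalling genes downstream of the receptors showed no shared direction with blast. Of 28 tested in the cortex, 14 had a higher estimate and 14 a lower one, with a median of 0.00. Adcy5 was at 0.26 (SE 0.08, unadjusted p = 0.00472, adjusted p = 0.842 by edgeR), with 308 to 316 CPM in the 3 blast libraries and 232 to 275 CPM in the 5 sham libraries. Every blast library was above every sham library for 2.06% of all genes there, and 5.82% reached an unadjusted p under 0.05. Gnal was at 0.35 (SE 0.17). In the amygdala 13 had a higher and 15 a lower estimate (median -0.01), with Gnal at -0.29 (SE 0.21) and Adcy5 at 0.05 (SE 0.10). The amygdalar indirect pathway genes were 1 higher and 5 lower and the other striatal genes 8 higher and 12 lower, with medians of -0.09 and -0.06. For the direct pathway, indirect pathway and other striatal genes, the counts of higher and lower estimates were 3 and 3, 3 and 2, and 7 and 12 in the hippocampus, and 3 and 0, 1 and 2, and 9 and 6 in the cerebellum.

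Genes whose pattern was most like the mean of the markers, with all libraries, were named for each region. For the anterior cortex, over 8 libraries, they were Acvr2a, Gpr101, Mrgprx3, Eif3el1, Zfp24 and Sulf1, with r from 0.96 to 0.94. In the amygdala, over 9 libraries, they were LOC100360846, AABR07024700.1, Znrd2, Evl, Zdbf2 and Elmo1, with r from 0.97 to 0.90. In the hippocampus, over 10 libraries, they were Tec, Ca8, Ptprm, Tpp1, AABR07018038.1 and Aif1l, with r from 0.99 to 0.96, and 4.81% of all genes exceeded 0.8 there. In the cerebellum, over 9 libraries and 7 markers, they were Unkl, Ctsf, AABR07071659.2, Shf, Shisa8 and Tlcd3a, with r from 0.96 to 0.91. None of these genes was named for 2 regions. The markers' mean log2 CPM was 3.40 in hippocampal blast 6 and 2.60 to 2.90 in the other hippocampal libraries. It was 3.87 in anterior cortex sham 13 and 4.50 to 4.92 in the other cortical libraries. How far r of these genes rested on those libraries was not tested.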

How the data were processed

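Total RNA of 4 rat brain regions was extracted with Qiazol and RNeasy columns and made into libraries with a NEBNext Ultra kit, per the labels. The submitters' processing notes name CASAVA, and the sources used here do not give the aligner, counter, build or strand setting. The authors deposited 1 table per region with whole read counts, a normalized signal, FPKM, log2 fold changes and p-values for each gene. Counts were tested with edgeR 4.0.16 (R 4.3.3), after filterByExpr and TMM scaling, within each region and over all 36 libraries, at an adjusted p under 0.05. Printed CPM are counts over library totals, log2 CPM for correlations use TMM and a prior count of 2, and FPKM are as deposited. For the markers, FPKM departed from counts scaled by library total and deposited gene length by a relative deviation of up to 0.217. Hippocampal correlations used 100000 resamples. DESeq2 1.42.0, other scalings, no filter, a replicate block and leaving out each library were the alternatives. Procedures were tested on simulated data. The markers and the gene lists were chosen with earlier results of these data known. Besides the 8 markers and genes of the lists by name, the text names the 6 genes per region of highest r with the markers' mean.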

Additional observations from a re-analysis of the deposited data

Results flagged for a closer look

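Of 56 groups of 4 or 5 libraries examined for a sample far from the others (chance gives about 1 in 20), 6 held one. In the hippocampus, blast 6 stood above the other blast libraries for Adora2a (9.01 CPM against 3.32 to 4.74), Ppp1r1b (166.4 CPM against 83.2 to 104.7) and Rgs9 (15.7 CPM against 6.16 to 8.42). In the anterior cortex, sham 13 stood below the other sham libraries for Pde10a, at 49.9 CPM against 68.4 to 74.8. In the cerebellum, Gpr6 had 1 count in blast 9 (0.055 CPM) and 2 counts in sham 16 (0.116 CPM), with all other libraries at 0, which is within counting error.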

How the results depend on the processing

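No marker crossed the threshold for blast against sham or for the difference between regions under any alternative run. Of 434 alternative estimates for blast, 12 changed sign and 422 did not. Leaving out 1 library gave -0.13 to 0.047 for Drd1 in the hippocampus, -0.32 to 0.0093 for Rgs9 and -0.16 to 0.0031 for Rarb in the amygdala, and -0.17 to 0.021 for Pde10a, -0.15 to 0.18 for Gpr6 and -0.0054 to 0.34 for Rarb in the anterior cortex. For Ppp1r1b in the cerebellum it gave -0.043 to 0.028, and one fit of all 36 libraries gave 0.0021. For sham levels, leaving out 1 library gave -0.24 to 0.0086 for Adora2a and -0.021 to 0.23 for Pde10a (hippocampus minus cerebellum) and -0.19 to 0.066 for Pde10a (amygdala minus cerebellum), and 14 of 624 alternative values lost a call and 2 gained one (Ppp1r1b in hippocampus against amygdala and Rgs9 in amygdala against cerebellum, without amygdalar sham 13). Lost calls concerned Rarb (hippocampus against amygdala), Rgs9 (hippocampus against cerebellum) and Ppp1r1b (anterior cortex against cerebellum), each only when 1 library was left out.

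Counts over all genes moved as follows, and the cause was not tested. DESeq2 called 11 genes in the amygdala, 9 in the anterior cortex and 41 in the cerebellum. Without a filter edgeR called 2 in the anterior cortex and 1 in the cerebellum, and with all libraries in one fit 0 and 4. Leaving out 1 library gave 0 to 1 in the hippocampus, 0 to 1 in the amygdala, 0 to 2 in the anterior cortex, 0 to 2 in the cerebellum and 0 to 3 for the difference between regions. Pairs of markers past the adjusted threshold numbered 0 to 1 in the hippocampus, 0 to 1 in the amygdala and 0 to 3 in the anterior cortex when 1 library was left out. The amygdala had 0 in 8 of 9 such cases.

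Whether same-numbered libraries of different regions came from the same rat was not settled. Of 48 such pairs, 17 had a correlation of deviations above 0.1, from -0.13 to 0.17 with a median of 0.087. Libraries of different numbers were not compared, so these values cannot show whether the numbers pair. The main tests across regions treated all libraries as independent. With the number as a replicate block, the difference between regions called 0 genes, and with sham libraries only the value for Pde10a, sham levels between regions, amygdala minus cerebellum, came to 0.0048. With 3 Gpr6 counts over the cerebellum, a blast difference of that gene was not detectable at this depth. Leaving out anterior cortex sham 13 or blast 6 from the correlations with the markers' mean was chosen after seeing the data.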
